A study of Mus musculus with 2 samples.

Results

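The genes described here are 38 genes of ribosome biogenesis and ribosomal RNA (rRNA) processing, chosen by symbol from the 56748 genes listed for each library. They fall into 7 roles: the box C/D small nucleolar ribonucleoprotein (snoRNP; 3 genes), the box H/ACA snoRNP (4), 2 abundant nucleolar chaperone-like proteins, the small subunit processome (13), late small subunit factors (5), large subunit factors (7) and RNA polymerase I with its initiation factors (4). Lineage-negative cells, that is bone marrow depleted of cells carrying mature lineage antigens, were taken from C57BL/6 mice and measured by droplet 3′ single-cell RNA sequencing, with 1 wild type (WT) library and 1 Nat10 conditional knockout (cKO) library. The series text speaks of 5 mice, without saying how they were shared between the libraries, and the files hold no map from cells to mice. The sources used here do not give the Cre driver, the deleted part of Nat10, the age or the time since deletion. Since each genotype has a single library, no test between genotypes could be made: every ratio below compares those libraries, and every interval is a 95% interval for counting error only.

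Ribosomes are assembled in the nucleolus, where RNA polymerase I transcribes a long precursor rRNA that is then modified, cleaved and folded while ribosomal proteins join it. Box C/D snoRNPs guide 2′-O-methylation and box H/ACA snoRNPs guide pseudouridylation of rRNA, the small subunit processome (which includes the U3 snoRNP) performs the early cleavages on the small subunit side, and the PeBoW complex and its partners process the large subunit precursors. NAT10, the enzyme deleted here, is itself a nucleolar factor that places N4-acetylcytidine on small subunit rRNA and on transfer RNA, and blood progenitors are known to differ in how much protein they make.

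Barcodes were kept from 1000 unique molecular identifiers (UMIs, counts of captured RNA molecules) and 500 genes upward if mitochondrial genes gave 10% of their UMIs or less. Removal of called doublets left 11945 WT cells and 10695 cKO cells at medians of 18315 and 21450 UMIs. The libraries shared 40 of their barcodes. Cells were clustered without the 38 members and without 115 other ribosome biogenesis genes, and clusters were named from marker lists. Names carry "-like" because they rest on RNA. In 11 classes each library held at least 100 cells, from 170 cKO and 431 WT cells of the HSC/MPP-like class (haematopoietic stem cells and multipotent progenitors) to 3082 cKO and 2015 WT erythroid progenitor-like cells. The markers given next come from the lists that named the clusters, so they are no separate check of the names. Mecom stood at 788 counts per 1000000 UMIs (CPM) in WT HSC/MPP-like cells against 1.90 in erythroid progenitor-like cells. Klf1 stood in WT at 205 CPM in erythroid progenitor-like and 271 in erythroblast-like cells, and Mpo at 8065 in granulocyte-monocyte progenitor-like (GMP-like) cells. T/NK-like cells (3.26% and 3.89% of kept cells) and stromal/endothelial-like cells (1.59% and 3.12%) were also present after lineage depletion. Another 22.1% of WT and 17.8% of cKO cells stayed unnamed, at median depths of 1695 and 2980.0 UMIs.

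To show the sequence in front of these genes, promoters (250 bases before to 50 after the start) were taken from RefSeq, build GRCm38.p6, in which 34 of the 38 members matched by symbol. Bop1, Fbl, Npm1 and Rrp12 had no entry. The canonical E-box CACGTG, which reads the same on both strands and is the motif bound by MYC and related factors, was counted as a letter match. Of the 34 members 10 (29.4%) held it: Imp4, Ltv1, Nop2, Pes1, Pno1, Rrn3, Tsr1, Utp20, Utp4 and Wdr43, with Rrn3 holding 2 copies. The share was 8.09% of all 27025 genes with a promoter, 12.5% of the genes with at least 5000 UMIs, and 14.1% of the other ribosome biogenesis genes. Late small subunit factors held it most often, 3 of 4 with an entry, and the 7 snoRNP and nucleolar chaperone-like genes with an entry held it in 0. The promoters of Pes1, Pno1 and Nop2 are printed as examples that hold the motif, in capitals (Pes1 chr11:3963725-3964024, plus strand; Pno1 chr11:17211540-17211839, minus strand; Nop2 chr6:125131633-125131932, plus strand). The motif begins at base 3 after the start in Pes1, at base 38 after it in Pno1 and 60 bases before it in Nop2.
Pes1: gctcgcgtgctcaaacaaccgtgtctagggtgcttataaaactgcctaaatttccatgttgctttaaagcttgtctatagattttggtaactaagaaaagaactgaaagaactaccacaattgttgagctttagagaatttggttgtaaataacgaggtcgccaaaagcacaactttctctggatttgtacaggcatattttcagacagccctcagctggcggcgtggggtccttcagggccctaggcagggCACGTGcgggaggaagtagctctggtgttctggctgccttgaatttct
Pno1: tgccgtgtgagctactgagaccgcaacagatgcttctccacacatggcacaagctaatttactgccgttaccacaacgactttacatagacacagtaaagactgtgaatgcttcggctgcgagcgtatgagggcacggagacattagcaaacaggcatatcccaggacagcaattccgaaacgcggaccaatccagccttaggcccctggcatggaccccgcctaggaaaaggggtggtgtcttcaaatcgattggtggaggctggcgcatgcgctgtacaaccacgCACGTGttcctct
Nop2: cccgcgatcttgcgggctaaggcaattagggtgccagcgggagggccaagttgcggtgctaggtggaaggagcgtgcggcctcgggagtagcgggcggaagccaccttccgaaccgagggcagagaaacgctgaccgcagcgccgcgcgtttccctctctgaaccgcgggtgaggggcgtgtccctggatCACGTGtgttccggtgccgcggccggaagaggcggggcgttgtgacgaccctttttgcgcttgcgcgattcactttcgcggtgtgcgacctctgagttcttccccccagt

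Nhp2 and Ebna1bp2 carried the most regular difference between the libraries, described below, and their promoters lack the motif (Nhp2 chr11:51619523-51619822, plus strand; Ebna1bp2 chr4:118620549-118620848, plus strand).
Nhp2: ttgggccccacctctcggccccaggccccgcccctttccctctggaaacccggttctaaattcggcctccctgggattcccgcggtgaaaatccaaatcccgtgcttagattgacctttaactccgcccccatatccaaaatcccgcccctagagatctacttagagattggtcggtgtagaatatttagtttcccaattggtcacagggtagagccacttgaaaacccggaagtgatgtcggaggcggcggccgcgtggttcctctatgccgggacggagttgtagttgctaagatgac
Ebna1bp2: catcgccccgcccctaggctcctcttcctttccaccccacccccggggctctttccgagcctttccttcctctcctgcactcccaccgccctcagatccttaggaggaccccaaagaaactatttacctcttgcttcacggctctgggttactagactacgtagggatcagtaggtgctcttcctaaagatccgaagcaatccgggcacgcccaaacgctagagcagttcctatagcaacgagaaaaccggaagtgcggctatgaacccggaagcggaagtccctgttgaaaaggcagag
A match is a description of these letters and not a bound site, and a missing match says nothing beyond this window.

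Across the 11 classes, the members were highest in erythroid progenitor-like cells and lowest in mature or non-haematopoietic cells, in both libraries. The summed level of the 38 genes in WT was 10490.3 CPM in erythroid progenitor-like, 7823 in GMP-like, 5969.6 in HSC/MPP-like, 3961 in erythroblast-like, 3079 in T/NK-like and 2687 in stromal/endothelial-like cells. In the cKO library the same classes stood at 12044, 9769, 8019.8, 4494, 3462 and 2461 CPM, the same order. Erythroid progenitor-like cells were the highest of the 11 classes for 35 of 38 members in WT and 33 of 38 in the cKO, and for 36 members the highest class was the same in both libraries. The members that peaked elsewhere in both were Nop10, Nop16 and Ebna1bp2, all highest in GMP-like cells.

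Each class was then set against HSC/MPP-like cells of the same library, with a fold of at least 1.5 as the call. In WT erythroid progenitor-like cells all 38 members were higher, 26 of them past the fold (all measured genes 23.8%), with a median log2 ratio of 0.71 against −0.11 for all genes. In the cKO library all 38 were again higher, 17 past the fold (all genes 20.7%), with a median of 0.56 against −0.07 for all genes. All 4 groups shared the direction: the medians in WT were 0.69 for the 7 snoRNP genes, 0.61 for the 18 small subunit genes, 0.69 for the 7 large subunit genes and 0.84 for the 4 polymerase I genes, and in the cKO 0.44, 0.62, 0.51 and 0.60. The 10 polymerase I genes among the other ribosome biogenesis genes had lower medians, 0.21 in WT and 0.17 in the cKO. In each library 6 of those 10 were higher. Pno1, the KH-domain protein that covers the end of the small subunit rRNA before its last cleavage, was at 27.1 CPM in WT HSC/MPP-like and 65.2 in WT erythroid progenitor-like cells, a log2 ratio of 1.26, the largest of the members in WT. Bms1, the GTPase of the processome, had the largest ratio in the cKO, 1.15, from 59.4 to 132 CPM, and stood at 1.12 in WT. Fbl, the 2′-O-methyltransferase of the box C/D snoRNP, was among the flattest, at 0.33 in WT and 0.08 in the cKO. S phase and mitotic genes were higher in the same cells (medians of 0.90 and 1.07 in WT), and their part in the result was not tested. The size of the step depended on how the HSC/MPP-like class was drawn: with doublets kept, that class grew to 1242 WT and 826 cKO cells and the medians came to 0.36 and 0.26, with 35 and 31 of 38 members higher and 8 and 3 past the fold. At Leiden resolution 2.5 the cKO count higher was 35, with 3 past the fold, and at 1.0 it was 35, with 9 past it. In WT 16 and 17 were past it at those resolutions. With scaling by trimmed means (TMM) the medians were 1.17 and 0.91.

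**Figure D1:**
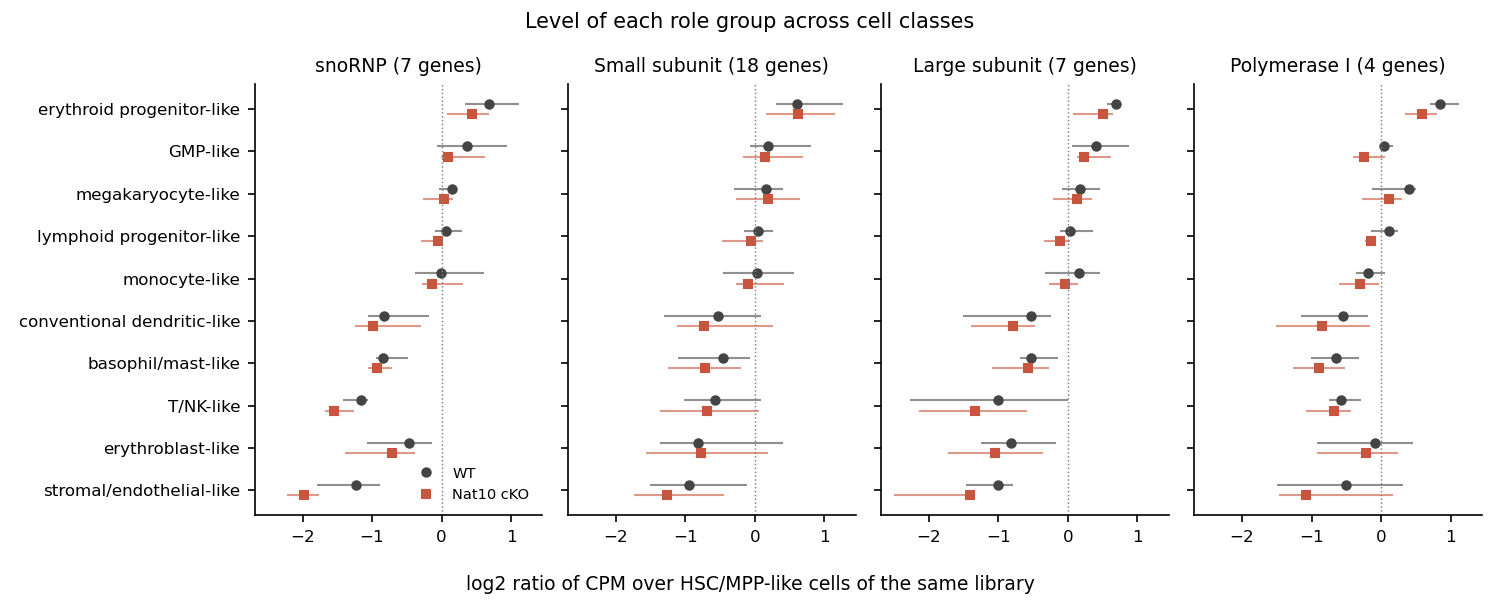
Median log2 ratio of CPM over HSC/MPP-like cells of the same library (x axis) for 10 other classes (y axis), in panels for the snoRNP, small subunit, large subunit and polymerase I groups; circles are WT, squares Nat10 cKO, and lines run from the lowest to the highest gene of the group. Erythroid progenitor-like cells stand highest in every panel. In erythroblast-like cells the median of the 4 polymerase I members lies higher (−0.09 in WT) than the small subunit (−0.82) and large subunit (−0.81) medians. Those 4 members run from −0.92 to 0.46 in WT, with 2 of them below 0.

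In erythroblast-like cells, a class named from haemoglobin and other red cell markers, the groups came apart. Its cluster 14 held less haemoglobin (6390.0 CPM in WT) than the erythroid progenitor-like cluster 39 (9609). The class median over the 38 members was −0.77 in both libraries, with 23 members in WT (all genes 42.7%) and 27 in the cKO (all genes 34.5%) past the fold lower. Small subunit genes had a WT median of −0.82, large subunit genes −0.81 and snoRNP genes −0.47. Polymerase I genes had −0.09, but the 4 genes differed among themselves: Ubtf, the upstream binding factor that keeps rRNA genes open, was at 103 CPM in WT HSC/MPP-like and 143 in WT erythroblast-like cells, and Rrn3, which recruits polymerase I to the promoter, at 30.8 and 39.2. The catalytic subunits Polr1a and Polr1b stood lower, with log2 ratios of −0.53 and −0.92. The same split held in the cKO, where Ubtf had 0.18, Rrn3 0.24, Polr1a −0.61 and Polr1b −0.92. The 10 polymerase I genes among the other ribosome biogenesis genes stood lower, with medians of −0.80 in WT and −0.61 in the cKO. Of those 10, 8 were lower in WT and 9 in the cKO. Bms1 and Emg1, a pseudouridine methyltransferase of the small subunit, were the other members not lower, at 0.12 and 0.40 in WT and 0.20 and 0.04 in the cKO. The sizes and, for 2 groups, the directions depended on scaling. With TMM the median over the members was −0.21 in WT and −0.39 in the cKO. The polymerase I median became 0.48 and 0.16, and the snoRNP median 0.10 in WT and −0.33 in the cKO. Small and large subunit medians stayed below 0, at −0.25 each in WT. S phase and mitotic genes were higher there, with WT medians of 1.59 and 1.92 over HSC/MPP-like cells.

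Within the erythroid clusters the members mostly stood lower where haemoglobin stood higher. Of the erythroid progenitor-like clusters, the WT summed level was 12626 CPM in cluster 4, with haemoglobin at 391 CPM, 10789 in cluster 6 with 851, 8678 in cluster 2 with 3585, and 6703 in cluster 39 with 9609. In the cKO the same clusters gave 13693, 11391, 9400.1 and 6714 CPM. The erythroblast-like cluster 22, with haemoglobin at 54378 CPM in WT, had 3409.7 CPM of members in WT and 3817 in the cKO. Clusters 5 and 14 did not keep this order (12812 and 4102 CPM of members in WT at 598 and 6390.0 CPM of haemoglobin), nor did the shallow erythroblast-like cluster 20, with 75686 CPM of haemoglobin, a mean of 2355 UMIs per WT cell and 7224 CPM of members.

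**Figure D2:**
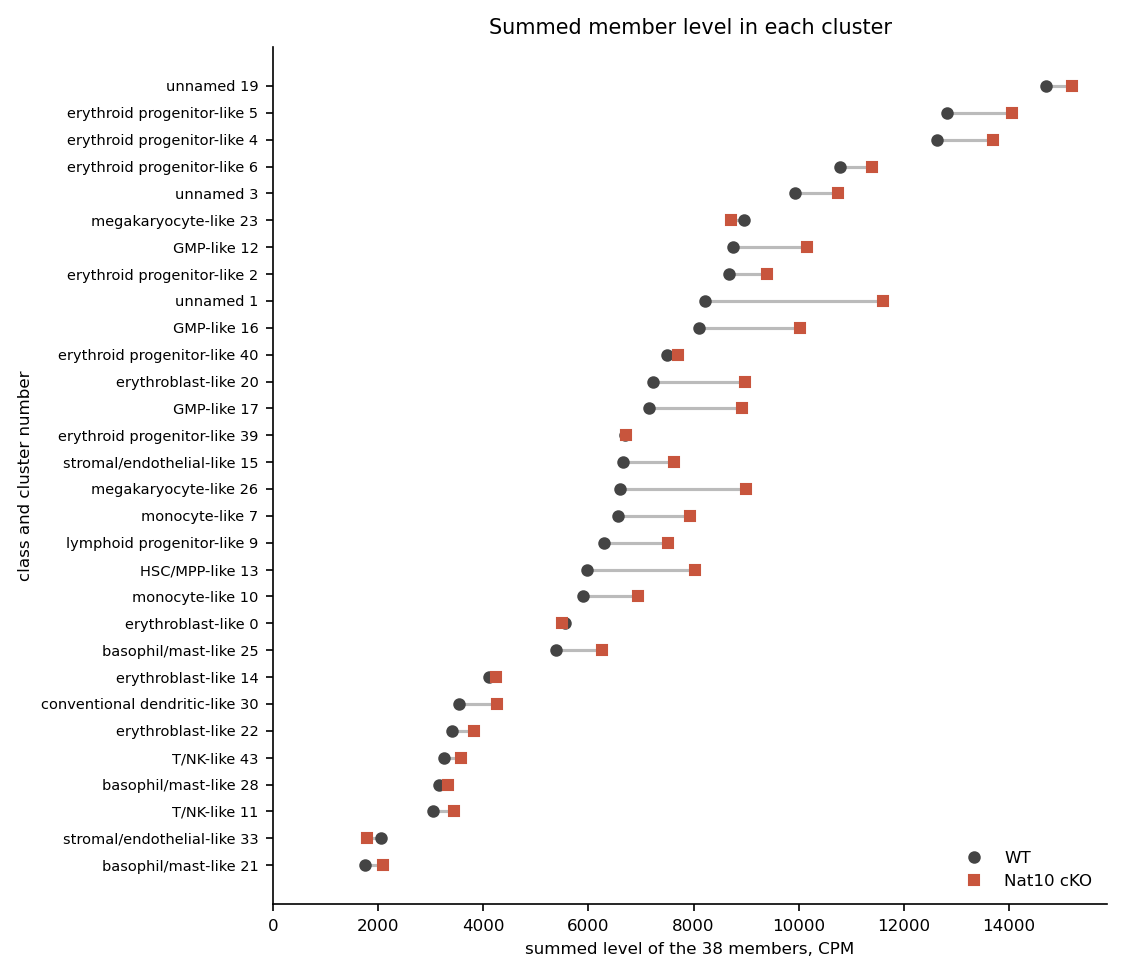
Summed level of the 38 members in CPM (x axis, from 0) in each cluster with at least 50 cells in both libraries (y axis, class and cluster number), with WT as circles, Nat10 cKO as squares and a line joining the pair. The unnamed cluster 19 lies highest, at 14705 CPM in WT and 15191 in the cKO. Erythroid progenitor-like clusters 4 and 5 lie at 12626 and 12812 CPM in WT, while T/NK-like and basophil/mast-like clusters 21 and 28 lie between 1747 and 3247 CPM in WT. Ncl and Npm1 together give 6863 of the 12626 CPM in cluster 4.

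In T/NK-like cells the snoRNP group stood lowest of the 4 groups. Its median over HSC/MPP-like cells was −1.16 in WT and −1.55 in the cKO, with 7 of 7 genes past the fold lower in each library. Large subunit genes had −1.003 and −1.33, small subunit genes −0.57 and −0.69, and polymerase I genes −0.58 and −0.67. Over all 38 members 25 in WT (all genes 36.7%) and 31 in the cKO (all genes 31.3%) were past the fold lower. Wdr12, which with Pes1 and Bop1 forms the PeBoW complex, had ratios of −2.28 and −2.04 there, whereas Bop1 had −0.00 and −0.60, so partners of 1 complex did not keep to 1 level at the RNA. Stromal/endothelial-like cells had the lowest medians, −0.996 in WT and −1.43 in the cKO, with 33 members past the fold lower in each (all genes 38.1% and 37.0%).

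GMP-like cells held an intermediate level, with a median of 0.27 over HSC/MPP-like cells in WT, 8 members past the fold higher (all genes 13.2%), and 0.15 in the cKO, 4 past the fold (all genes 9.30%). With TMM these medians were 0.70 and 0.54. Of the 4 groups, large subunit genes stood highest there, at 0.41 in WT and 0.24 in the cKO. Taken by role, box H/ACA genes stood higher, at 0.57 and 0.39, as did the chaperone-like pair, at 0.43 and 0.33. Polymerase I genes lay at 0.04 in WT and −0.24 in the cKO, a direction that TMM turned in the cKO (0.47 and 0.15). In lymphoid progenitor-like cells the members lay close to the HSC/MPP-like level, with a median of 0.05 and 0 past the fold in WT (all genes 6.11%), and in the cKO, also with 0 past the fold (all genes 5.99%), the 4 group medians lay between −0.14 and −0.05.

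The groups kept together over clusters. Each gene's log2(CPM + 1) was standardised over 60 points, each a cluster in a library from 30 clusters, and averaged over its group. The snoRNP average correlated with the large subunit average at r = 0.98 and with the small subunit average at 0.95. The polymerase I average correlated with those of the other 3 groups at 0.78 to 0.87. These are descriptions: points of 1 library share its depth, and the same cluster enters from both libraries. Against the mean profile of all 38 members, which includes the gene itself, Pes1 (0.97) and Ncl (0.97) were the most alike, and Ubtf (0.72), Rrn3 (0.72) and Polr1a (0.79) the least. Outside the members, of 7142 genes averaging 20 CPM or more, the 10 most alike were Mybbp1a (0.97), Rsl1d1 (0.97), Nsun2 (0.97), Hspa9 (0.97), Atad3a (0.97), Nolc1 (0.96), Cct3 (0.96), Gart (0.96), Gspt1 (0.96) and Fkbp4 (0.96). Nat10 had 0.79, Myc 0.75, Pcna 0.47 and Mki67 0.35, against a median of 0.14 over all these genes.

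Between the libraries, most members were higher in the cKO cells in all classes except stromal/endothelial-like cells, and by less than 2-fold in every class. Single clusters did not all follow. Higher members numbered 19 of 38 in basophil/mast-like cluster 28 and 18 of 38 in erythroblast-like cluster 0. Megakaryocyte-like cluster 23 had 11 of 25 measured members higher. Nat10 itself, as a check of the labels, went from 71.8 CPM in WT to 49.9 in cKO erythroid progenitor-like cells (log2 ratio −0.52, interval −0.57 to −0.47), from 39.6 to 28.4 in GMP-like cells and from 38.4 to 30.4 in HSC/MPP-like cells. In erythroblast-like cells the log2 ratio was 0.00, but clusters of that class differed. Nat10 went from 24.1 CPM in WT to 11.1 in the cKO in cluster 0, from 12.4 to 9.80 in cluster 22 and from 27.5 to 25.1 in cluster 20. Cluster 14 went the other way, from 44.1 to 50.3 CPM. It held more cells in the cKO library than in WT, although the class held fewer. The part of this cluster mix in the class ratio was not tested. Nat10 RNA was thus still read in cKO cells, and a 3′ read may lie outside the deleted part.

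In HSC/MPP-like cells 35 of 38 members were higher in the cKO, 16 of them past a log2 ratio of 0.32, the size called here (all measured genes 17.1%; 994 of 4969 genes with at least 500 UMIs), with a median of 0.29 against −0.13 for all genes, and 26 intervals lay above 0. In GMP-like cells 10 members were past it (all genes 9.56%) and the median was 0.22 against −0.13. In erythroid progenitor-like cells 4 were past it (all genes 8.37%) and the median was 0.13 against −0.10. In each of these 3 classes 0 members were past the size lower, where all genes gave 33.5%, 26.4% and 19.0%. The shift of all genes is close to the TMM offsets of −0.14, −0.10 and −0.11 in the same classes, and relative to it the member medians become 0.43, 0.32 and 0.24. The libraries also differed in which clusters made up a class. Of the erythroid progenitor-like cells the largest WT share was cluster 6 and the largest cKO share cluster 4, and within single clusters of the class the member medians were −0.03 to 0.08. With cKO clusters weighted as in WT, the class median came to 0.06. The HSC/MPP-like class is 1 cluster, so no such weighting applied to it. Over all kept cells the median was 0.29, with 15 members past the size higher (all genes 13.8%) and 0 lower (27.5%), and weighted to the WT clusters it was 0.10, with 2 past it.

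Among the roles, the box H/ACA snoRNP had the highest median in HSC/MPP-, erythroid progenitor- and GMP-like cells, though not in every class: in megakaryocyte-like cells the chaperone-like pair stood at 0.53 and H/ACA genes at 0.41, and in T/NK-like cells large subunit genes at 0.35 and H/ACA genes at 0.27. Its 4 genes were all past the size in HSC/MPP-like cells, where their median was 0.56. The erythroid progenitor-like median was 0.27 and the GMP-like median 0.39. Nhp2, a structural protein of the particle, was at 162 CPM in WT and 296 in cKO HSC/MPP-like cells, a log2 ratio of 0.87 (0.76 to 0.98). In GMP-like cells it was at 312 and 456 CPM (0.55) and in erythroid progenitor-like cells at 351 and 473 (0.43). It was past the size higher in 10 of 11 classes, and its intervals lay above 0 in all of those 10. Gar1, another structural protein, was at 64.2 and 91.8 CPM in HSC/MPP-like cells (0.52) and past the size in 8 classes, and Nop10, the smallest subunit, was higher in all 11. Dkc1, the pseudouridine synthase dyskerin, had the smallest ratios of the 4: it was at 127 and 179 CPM in the HSC/MPP-like class (0.50) and at 209 and 233 (0.15) in the erythroid progenitor-like class.

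Box C/D genes had medians of 0.37, 0.08 and 0.25 in HSC/MPP-, erythroid progenitor- and GMP-like cells. Nop58, which with Nop56 forms the core that Fbl binds, was at 284 CPM in WT and 322 in cKO HSC/MPP-like cells (0.18), and at 445 and 442 (−0.01) in erythroid progenitor-like cells. Nop56 was at 158 and 204 CPM (0.37) and Fbl at 229.5 and 312 (0.44) in HSC/MPP-like cells. The 2 chaperone-like proteins made up 2888 of the 5969.6 CPM in WT HSC/MPP-like cells. Ncl, nucleolin, stood there at 1222 and 1638 CPM (0.42) and Npm1, nucleophosmin, at 1665 and 2403 (0.53). Npm1 has processed pseudogenes, and the sources used here do not say how the authors counted reads shared with them.

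**Figure D3:**
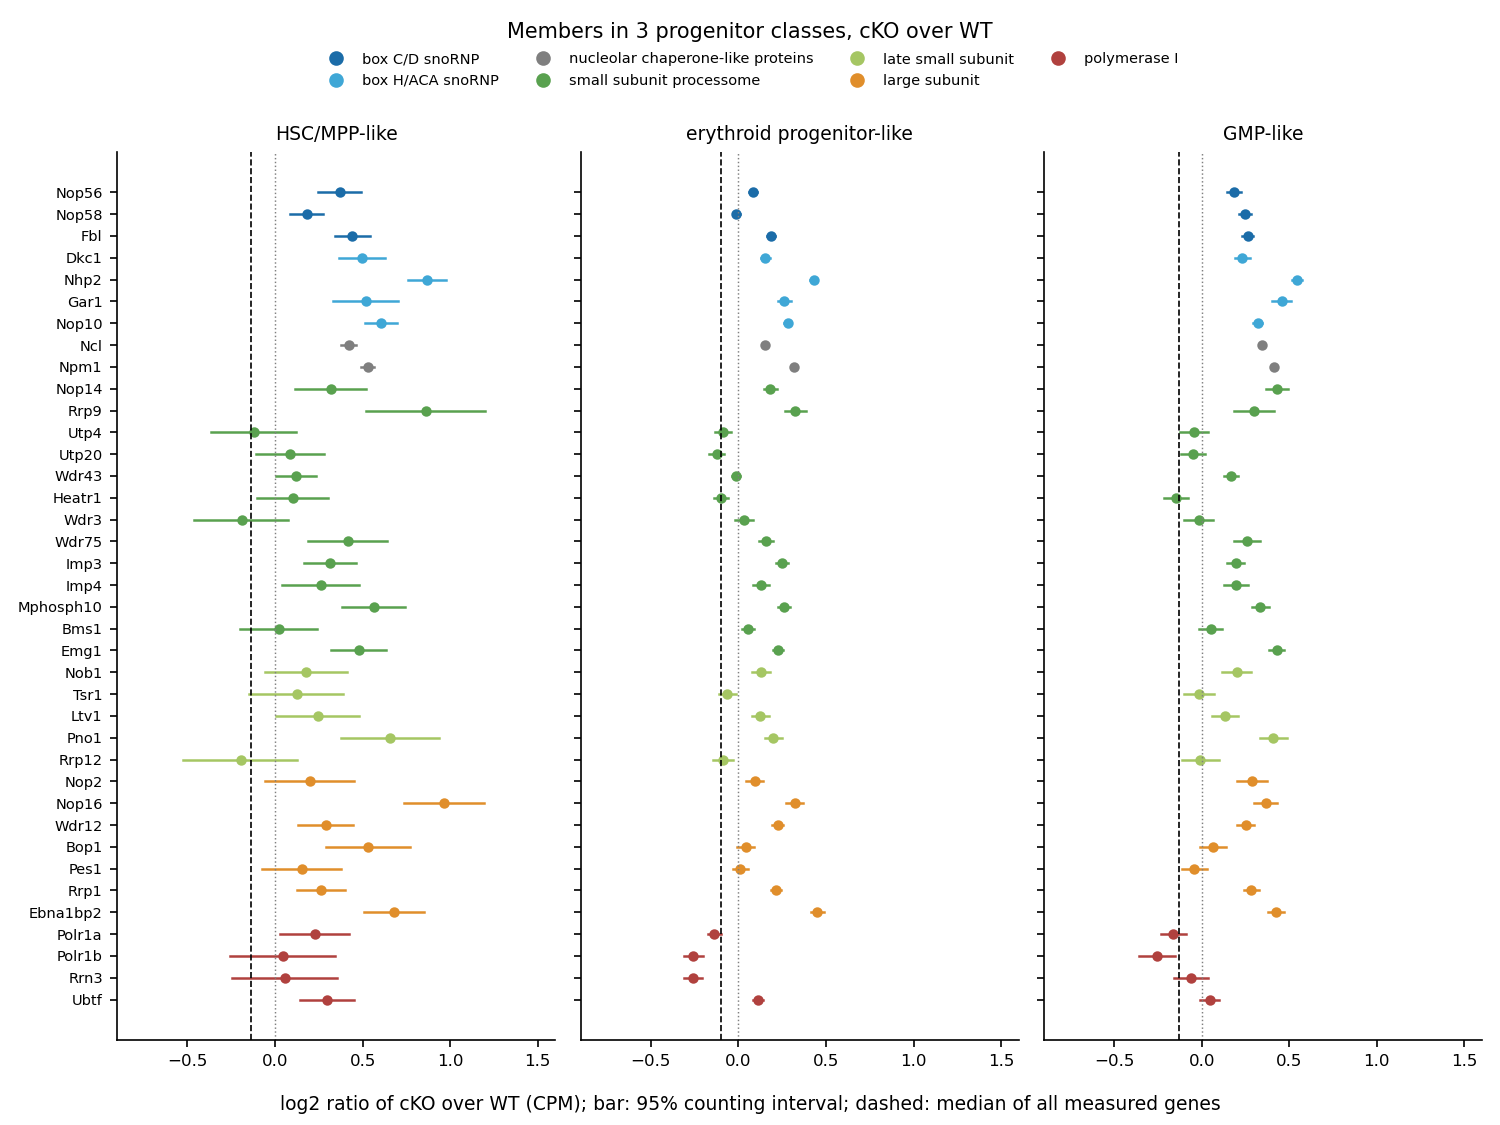
Log2 ratio of cKO over WT (x axis) for each of the 38 members (y axis, coloured by role) in 3 classes; points are ratios, bars 95% counting intervals, the dotted line marks 0 and the dashed line the median of all measured genes. Box H/ACA genes, Nop16 and Ebna1bp2 lie to the right in all 3 panels, and Polr1a, Polr1b and Rrn3 lie left of 0 in erythroid progenitor-like and GMP-like cells.

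The 13 processome genes spanned a wide range. Rrp9, the U3-specific protein, was at 17.2 and 31.3 CPM in HSC/MPP-like cells (0.86, interval 0.52 to 1.2) and was past the size in 8 of the 10 classes where it was measured. Emg1 was at 91.2 and 127 CPM (0.48), Mphosph10 at 66.7 and 98.5 (0.56), and Imp3, which works with Mphosph10 and Imp4 on U3, at 105 and 131 (0.31). Emg1 and Imp3 were higher in all 11 classes. Of the other processome proteins, Wdr75 was at 45.2 and 60.3 CPM (0.42), Nop14 at 60.3 and 75.1 (0.32), Imp4 at 51.3 and 61.4 (0.26), Wdr43 at 191 and 208 (0.12) and Bms1 at 58.5 and 59.4 (0.02), and the interval of Bms1 included 0. The intervals also included 0 for Utp4 (49.6 and 45.7 CPM, −0.12), Wdr3 (43.4 and 38, −0.19), Heatr1 (65.4 and 70.2, 0.10) and Utp20 (72.3 and 76.7, 0.09). In erythroid progenitor-like cells Utp20, Heatr1 and Utp4 were lower in the cKO, at −0.12, −0.10 and −0.09, close to the median of all genes there. Of the 5 late factors, Pno1 was at 27.1 and 42.7 CPM in HSC/MPP-like cells (0.66) and Rrp12, a factor in export of the precursors, at 29.6 and 25.9 (−0.19). Nob1, the endonuclease of the last cleavage, was at 47.0 and 53.1 (0.18), Ltv1, a small subunit assembly factor, at 45.1 and 53.3 (0.24) and Tsr1, a GTPase-like factor, at 37.6 and 40.9 (0.12), and of these 3 the interval of Ltv1 alone lay above 0.

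All 7 large subunit genes were higher in cKO HSC/MPP-like cells. Nop16 had the largest ratio of any member there, from 36.5 to 71.3 CPM (0.97, interval 0.74 to 1.19). Ebna1bp2, a nucleolar factor needed for the large subunit precursor, was at 72.1 and 115 CPM (0.68), at 110 and 150 in erythroid progenitor-like cells (0.45, the largest there) and at 133 and 178 in GMP-like cells (0.42). The PeBoW partners did not have like ratios in HSC/MPP-like cells: Bop1 had 0.53, Wdr12 0.29 and Pes1 0.15, with the interval of Pes1 including 0. In erythroid progenitor-like cells Bop1 (0.04) and Pes1 (0.01) lay near 0 and Wdr12 at 0.22. Nop2, an rRNA cytosine methyltransferase, was at 39.6 and 45.4 CPM (0.20) in HSC/MPP-like cells and Rrp1 at 131 and 157 (0.26).

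Polymerase I genes had the lowest median of the roles in HSC/MPP-, erythroid progenitor- and GMP-like cells. Of the 4 genes 0 were past the size higher in any of the 11 classes, where the background was between 8.37% and 23.7% of genes. For only 4 genes a count of 0 is near that share, and the classes repeat the same genes. In erythroid progenitor-like cells Polr1a was at 108 and 97.9 CPM (−0.14), Polr1b at 57.0 and 47.6 (−0.26), Rrn3 at 66.8 and 55.8 (−0.26) and Ubtf at 182 and 197 (0.11). The group median was −0.20 there (−0.09 with TMM) and −0.11 in GMP-like cells (−0.01 with TMM). With cKO clusters weighted as in WT these medians were −0.24 and −0.18. All genes then had −0.10 and −0.16, so the group lay below the all-gene median in the first class and near it in the second. In HSC/MPP-like cells all 4 were higher, with a median of 0.14, and the intervals of Polr1b and Rrn3 included 0. Whether the group differs from the others beyond the spread between mice was not tested, for want of replicate libraries.

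In the other classes the same members led. Nhp2 was the highest member in GMP-, megakaryocyte-, monocyte-, conventional dendritic-, basophil/mast- and T/NK-like cells, with log2 ratios of 0.55, 0.83, 0.56, 0.66, 0.76 and 0.62. Gar1 led in lymphoid progenitor-like cells at 0.58 and Rrp9 in erythroblast-like cells at 0.62. Polr1b was among the 3 lowest in megakaryocyte- (−0.45), GMP- (−0.25), monocyte- (−0.20), conventional dendritic- (−0.31) and T/NK-like cells (−0.44), Heatr1 the lowest in basophil/mast-like cells (−0.40), and Rrp12 in conventional dendritic-like cells (−0.47). The number of members past the size higher was 17 in megakaryocyte-like (all genes 18.8%), 13 in monocyte-like (11.4%), 13 in basophil/mast-like (14.9%), 11 in conventional dendritic-like (14.2%), 10 in T/NK-like (23.7%), 9 in erythroblast-like (16.4%) and 7 in lymphoid progenitor-like cells (12.8%). The T/NK-like count is near the share of all genes. In T/NK- and erythroblast-like cells the all-gene median was itself above 0, at 0.06 and 0.04, against a member median of 0.16 in each. Members past it lower numbered 2 in T/NK-like (all genes 12.4%), 1 each in lymphoid progenitor-like (25.8%), megakaryocyte-like (31.2%), conventional dendritic-like (21.3%) and basophil/mast-like cells (19.2%), and 0 in monocyte-like (20.6%) and erythroblast-like cells (7.90%). The monocyte-like cells were mostly cluster 10 in WT (675 of 915) and mostly cluster 7 in the cKO (364 of 483), with member medians of 0.20 and 0.19 within those clusters. With cKO clusters weighted as in WT the member medians were 0.17 in monocyte-, 0.07 in erythroblast- and 0.06 in basophil/mast-like cells, against 0.28, 0.16 and 0.12 unweighted.

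Stromal/endothelial-like cells went the other way. Of 35 members with at least 50 UMIs there, 9 were past the size lower (all genes 17.8%) and 2 higher (20.6%), with a median of −0.14 against 0.02 for all genes and 0 intervals above 0. Dkc1 was at 66.0 CPM in WT and 38.1 in the cKO (−0.79, interval −1.24 to −0.35), and Utp20 at 38.8 and 25.2 (−0.62). S phase and mitotic genes were lower too, with medians of −0.92 and −0.74, and cytosolic ribosomal protein genes with −0.23 (72 of 76 lower). The class rested on 190 WT cells at a median of 2612.5 UMIs, and its clusters were unequally shared: cluster 33 held 86 WT and 215 cKO cells and cluster 15 held 78 and 61. Within cluster 15 the member median was 0.15 and within cluster 33 it was −0.17. With cKO clusters weighted as in WT it was 0.02, so the direction did not hold.

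**Figure D4:**
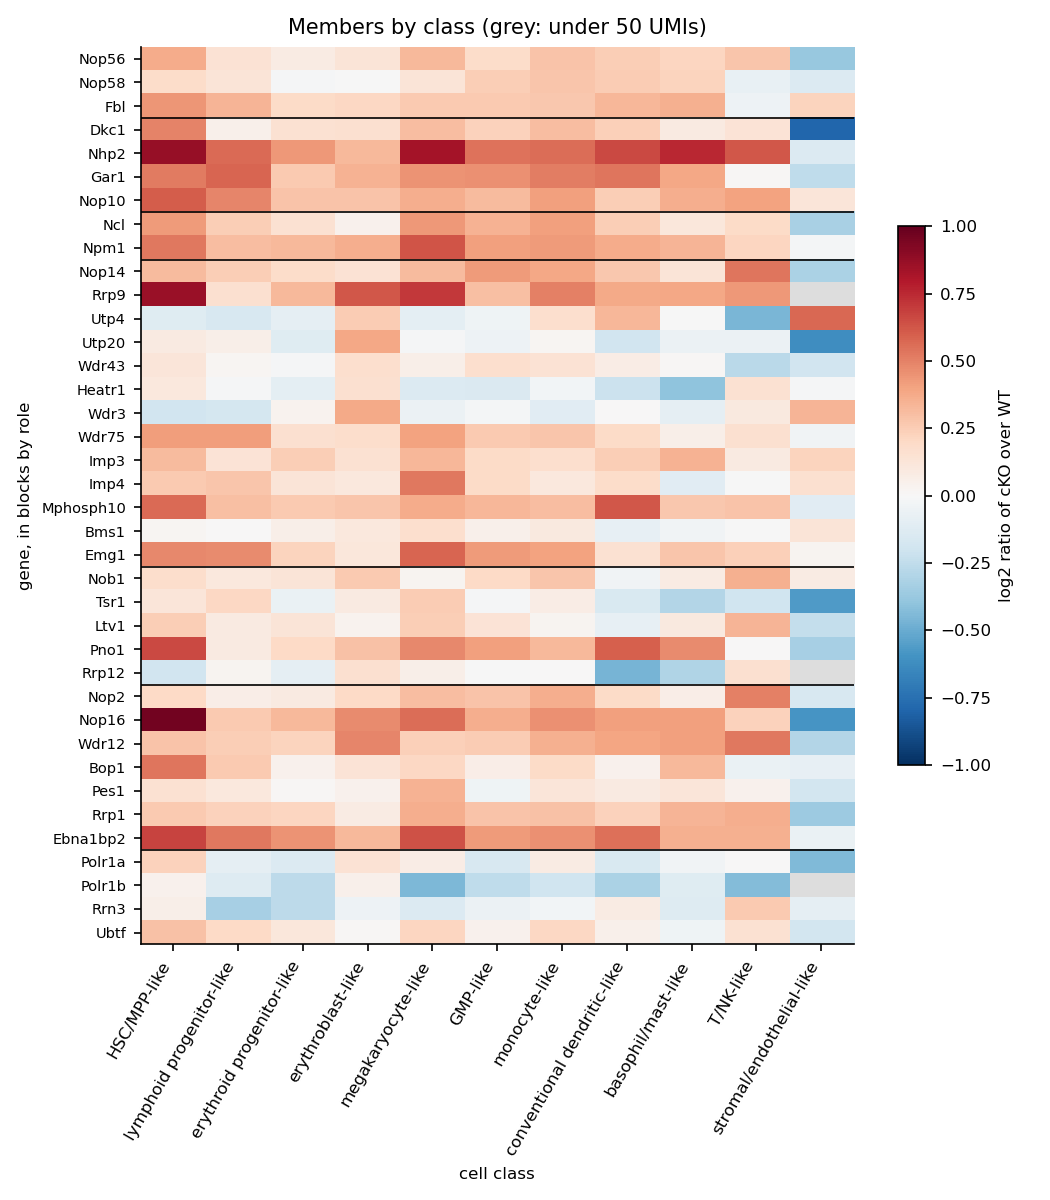
Log2 ratio of cKO over WT (colour, from −1 in blue to 1 in red) for 38 members (rows, in blocks by role) in 11 classes (columns), with grey for genes under 50 UMIs. The rows of Nhp2, Nop16 and Ebna1bp2 are red in every class but stromal/endothelial-like. The polymerase I block at the bottom holds 0 genes past the size higher, which for so few genes is near the share of all genes.

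The other ribosome biogenesis genes, 115 of which were found in the files, had smaller medians than the members. In HSC/MPP-like cells 36 (against 17.1% of all genes) were past the size higher and 4 lower, with a median of 0.19, in the GMP-like class 22 (against 9.56% of all genes) and 1 (0.13), and in the erythroid progenitor-like class 8 (against 8.37% of all genes) and 1 (0.05). The share in the erythroid progenitor-like class, 8 of 115, is near that of all genes. The highest in HSC/MPP-like cells were Exosc4, an exosome subunit (0.84), and the large subunit factors Mrto4 (0.83) and Eif6 (0.79). Mrto4 was also the highest in erythroid progenitor-like cells, at 161 and 228 CPM (0.51), before Eif6 (0.47) and Exosc4 (0.47), and in GMP-like cells (0.68), before Wdr74 (0.54) and Eif6 (0.53). The lowest were Nol10 (−0.53), Riok2 (−0.48) and Nat10 (−0.34) in HSC/MPP-like cells, Nat10, Tex10 (−0.22) and Nol10 (−0.21) in erythroid progenitor-like cells, and Nat10 (−0.48), Taf1b (−0.25) and Taf1d (−0.24) in GMP-like cells. Taf1b and Taf1d belong to SL1, the polymerase I selectivity factor. The cytosolic ribosomal protein genes were higher as well: 76 of 76 in HSC/MPP-like cells with a median of 0.40, 70 of 76 in erythroid progenitor-like cells (0.18) and 69 of 76 in GMP-like cells (0.17).

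Values that moved beside these ratios are given here, and their part in them was not tested. In HSC/MPP-like cells mitotic genes were higher in the cKO, 16 of 16 with a median of 0.44 and summed levels of 1615 and 2121 CPM, and S phase genes 14 of 16 (0.27). In erythroid progenitor-like cells S phase genes were lower, 14 of 16 with a median of −0.21, and mitotic genes near level at 0.02. Myc was at 82.5 and 94.5 CPM in the HSC/MPP-like class (0.20), 47.9 and 56.9 in the erythroid progenitor-like class (0.25) and 66.0 and 72.6 in GMP-like cells (0.14), and the MYC family and network list had a median of −0.31 in HSC/MPP-like cells. Myc was lower in cKO megakaryocyte-like cells (−0.28), where the member median was 0.31. Mecom, a stem cell gene, was at 788 and 602 CPM in HSC/MPP-like cells and Hlf at 339.9 and 175. Median depth in that class was 19102 UMIs in WT and 24437 in the cKO. Members that hold the E-box had a median of 0.14 in the HSC/MPP-like class and −0.00 in the erythroid progenitor-like class, against 0.34 and 0.17 for the 24 members with a promoter entry and no match. The box H/ACA genes all lack the motif, so these sets differ in role, and gene length was not held equal between them. The part of the motif was not tested.

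In most classes, members with a shorter span had the higher ratios, span being measured from first to last base of the gene model (GENCODE vM21, GRCm38, used for length only). Imp3 spans 0.924 kb and Nop10 1.34 kb, Nhp2 3.98, Nop16 5.91 and Ebna1bp2 6.98 kb, whereas Utp20 spans 80.2, Polr1a 75.9 and Heatr1 45.3 kb. Over the 38 members Spearman's rho of span with ratio was −0.70 in HSC/MPP-like, −0.77 in erythroid progenitor-like and −0.67 in GMP-like cells; over all measured genes it was −0.39, −0.24 and −0.27. The members' rho was weaker in T/NK-like (−0.38) and erythroblast-like cells (−0.25) and near 0 in the stromal/endothelial-like class (−0.06). In HSC/MPP-like cells the 10 members of 3 to 10 kb had a median of 0.59, against 0.14 for all genes of that span, and the 8 members of 30 to 100 kb had 0.09, against −0.23. Members above the median of all genes in their span range numbered 36 of 38 in HSC/MPP-like, 34 in erythroid progenitor-like and 37 in GMP-like cells, but 22 of 38 in T/NK-like and 9 of 35 in stromal/endothelial-like cells. Ubtf, at 15.2 kb, was the shortest polymerase I gene and the only one of the 4 above 0 in erythroid progenitor-like cells, and Polr1b (25.6 kb) and Rrn3 (34.1 kb) lay below the all-gene medians of their spans. Of the members, 6 hold snoRNA genes within their span, 18 in all, led by Nop56 with 5 and Nop58 with 4. The sources used here do not say whether intronic reads were counted, and its part in the relation to span was not tested.

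**Figure D5:**
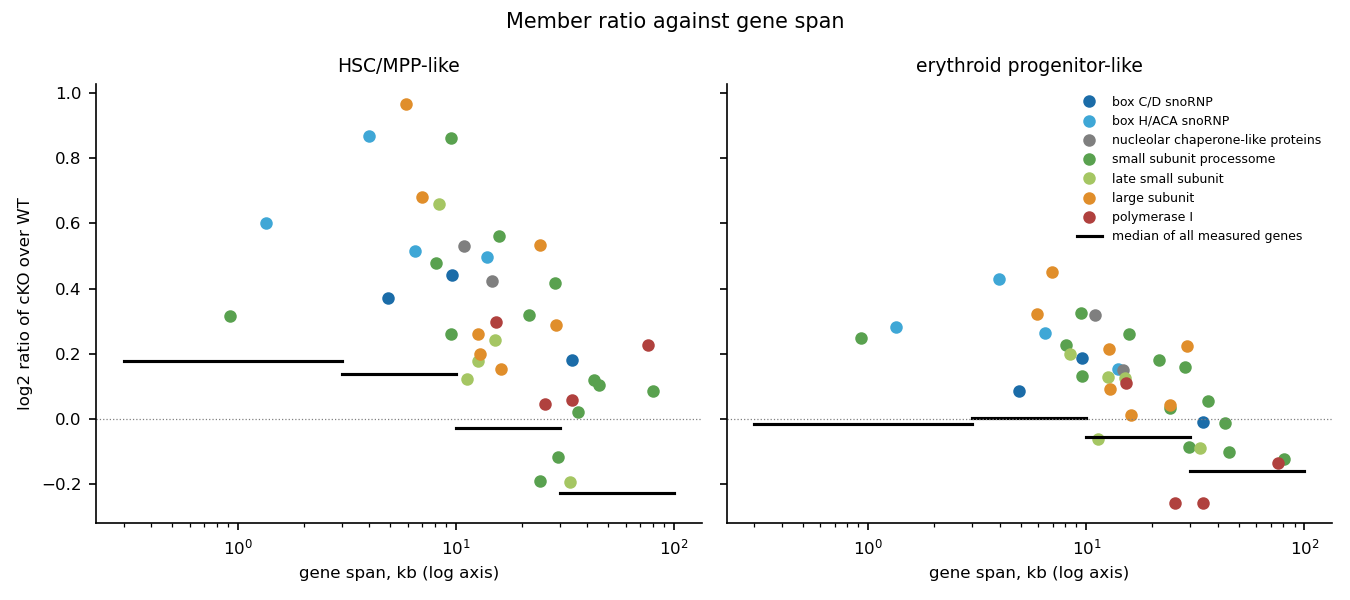
Log2 ratio of cKO over WT (y axis) against gene span in kb (x axis, log scale) for the 38 members, coloured by role, in HSC/MPP-like (left) and erythroid progenitor-like cells (right); black bars are medians of all measured genes in 4 span ranges. Short members lie highest in both panels, and in the right panel Polr1b and Rrn3 lie lowest, at −0.26.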

How the data were processed

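Each genotype gave 1 library of lineage-negative bone marrow. Per the submitters' processing notes, the authors used Cell Ranger 7.1.0 and the mouse build mm39. The deposited count matrices hold whole UMI counts per gene and barcode. The sources used here do not give the cell calling. Barcodes were filtered as in the report, and doublets were removed with Scrublet in scanpy 1.11.5 at an expected 8% (592 WT, 544 cKO). Cells were clustered together on 2000 variable genes, 30 components, 15 neighbours and Leiden resolution 1.5. A cluster needed 3 markers at 2-fold. Clusters still mixed after 1 split stayed unnamed, which was decided with the clusters in view. UMIs were summed per class and library, scaled to the total (CPM) and compared as log2 ratios with 0.5 added. A gene counted as measured from 50 UMIs, both libraries summed. Intervals are exact conditional binomial intervals, and the ratio code was checked on simulated counts. Members and lists were chosen with earlier results of these data known. All members are named by role, with the 3 highest and 3 lowest per class, the 3 highest and lowest other pathway genes, Nat10, Myc, the cell cycle, MYC and ribosomal protein lists, and the 10 most alike genes. Alternatives changed doublets, scaling, cell weights, filters, cluster mix, resolution and class calling.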

Additional observations from a re-analysis of the deposited data

Results flagged for a closer look

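Dkc1 had a log2 ratio of cKO over WT of 0.50 in the HSC/MPP-like class and −0.79 in the stromal/endothelial-like class, so the classes lay on opposite sides of 0. Ncl stood at 0.43 in the megakaryocyte-like class and −0.32 in the stromal/endothelial-like class. Utp20 stood at 0.38 in the erythroblast-like class and −0.62 in the stromal/endothelial-like class. All 3 meet the size of 0.32 on the log2 scale in opposite directions in those classes. The difference between classes was not tested, since each class has 1 library per genotype. All 3 rest on the stromal/endothelial-like class, whose clusters the libraries shared unequally. With cKO clusters weighted to the WT mix, its box H/ACA median went from −0.19 to 0.03, its chaperone-like median from −0.17 to 0.18 and its small subunit processome median from 0.01 to 0.17.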

How the results depend on the processing

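The medians over the members in all kept, HSC/MPP-, erythroid progenitor- and GMP-like cells, and of the erythroid progenitor-like over the HSC/MPP-like class in each library, changed sign in 0 of 66 settings. Of these, 54 stayed between the median lower and the median upper bound of the single members' counting intervals. That range is wider than the counting error of the median itself. Some of these settings, named below, could not move a median. With TMM scaling the cKO over WT medians were 0.39 in all kept, 0.24 in erythroid progenitor-like and 0.32 in GMP-like cells, and the erythroid progenitor-like over HSC/MPP-like medians were 1.17 in WT and 0.91 in the cKO. With cKO clusters weighted to the WT mix the medians were 0.10 in all kept and 0.055 in erythroid progenitor-like cells, and with each cell given equal weight 0.27 over all cells. With doublets kept, the medians over HSC/MPP-like cells were 0.36 in WT and 0.26 in the cKO. At Leiden resolutions 1.0 and 2.5 these were 0.54 and 0.51 in WT and 0.40 and 0.38 in the cKO. The counts of members past the size called were less stable: 2 to 24 in all kept cells against 15, 11 to 25 in HSC/MPP-like against 16, 1 to 12 in erythroid progenitor-like against 4, 10 to 19 in GMP-like against 10, and for erythroid progenitor-like over HSC/MPP-like cells 8 to 38 in WT against 26 and 3 to 33 in the cKO against 17. Of 1672 values of single members 293 left their counting interval and 0 of those past the fold changed sign. Keeping the pathway genes in the clustering changed nothing, since 0 of them were among the variable genes. Dropping the UMI minimum of a gene, or raising it to 200, kept all 38 members and so could not move a value either. Nor could weighting to the WT mix of clusters in the HSC/MPP-like class, which is 1 cluster. These settings are counted in the 66 and the 1672 above. No paired analysis was possible because each genotype has 1 library. Depth was lowest in stromal/endothelial-like cells, with 1393507 UMIs in WT, where 3 members were under 50 UMIs. Leaving out a replicate was not possible.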
